A study of Mus musculus with 16 samples.

Results

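On-off probes are array probes that were well above background in the wounds of every animal group of one mouse strain and in no array of the other. Of 39429 probes that are no controls, 36 (0.0913%) fitted this description, 20 on the WT side (0.0507% of all probes) and 16 on the db/db side (0.0406%). They were selected on the detection flags of the scanner files: the flag for a signal well above background had to be set on all 4 WT arrays and on none of the 12 db/db arrays, or the reverse. Probes of 6 symbol families described elsewhere (symbols beginning Skint, Mup, Naip, Mcpt, Col or Lepr) were set aside, which removed 4 WT-only probes, those of Skint3, Skint4, Skint11 and Mup6. Because measured flags chose the probes, the difference between the strains on these probes is given below as a description, with no test. The 36 probes carry 18 gene symbols, 10 on the WT side and 8 on the db/db side, where Slc5a7 has 2 probes. The other 17 probes are known here by an accession or a probe name alone.

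The WT group was female C57BL/6J mice aged 10 to 12 weeks, and their wounds received no treatment. The db/db mice were 10-week-old diabetic females of C57BLKS/J Iar background, homozygous for the Lepr db mutation of the leptin receptor (+Lepr db/+Lepr db). They were left untreated (db/db), or received estradiol benzoate in sesame oil on the wound each day (db/db + estrogen), or the oil alone (db/db + vehicle). Each full-thickness wound, with the intact skin around it, was bisected, and the piece kept for RNA was snap-frozen and homogenised. Samples were taken at labelled days 7 and 14, with 2 arrays for each of the 8 groups. On labelled day 7 each slide held both strains. On labelled day 14 the untreated db/db arrays and the WT arrays lay on different slides. Treated db/db arrays lay on both of those slides, and only through them can strain and slide be separated on that day. Background strain, the Lepr mutation and diabetes all differ between the WT and db/db groups and cannot be told apart. The labels do not say whether the 2 arrays of a group came from separate mice, so p-values measure the spread between these arrays.

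The days given here are those of the labels. They are uncertain, because each of 39 published fold changes that could be set against these arrays lay nearer to the arrays labelled with the other day. The rule takes both days together and does not depend on them. Between 70.1% and 79.0% of the probes were well above background on an array, and 25969 probes (65.9%) on all 16. The signal at the 75th percentile, which sets the scale of an array, ranged from 1091 to 2549. All 6 keratinocyte markers were well above background on every array, and of the 2 liver markers, Apoa1 was above background on no array of 7 of the 8 groups. The other, Alb, was detected on every WT array and every db/db array labelled day 14. Neither db/db + estrogen array labelled day 7 detected Alb. The summed liver level spanned -7.27 to -1.24 in db/db day 7, so liver signal was not absent.

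An array probe reads a short stretch of 1 transcript, so different probes of a gene can report different exons, ends or isoforms. C57BLKS/J is a relative of C57BL/6 whose genome also holds segments of DBA/2J, and loci such as the major histocompatibility complex (MHC) and the natural killer cell receptor cluster are known to differ widely between inbred strains. Levels below are log2 of the background-subtracted signal minus log2 of the 75th percentile of the array, so a level of 0 lies at that percentile and a difference of 1 is a doubling. Where a probe was not well above background the signal only sets a limit, and the size of the difference is given as "at least": the mean level where the probe was detected, less the mean over the undetected arrays of the higher of its own level and the lowest level of any detected probe on that array. A p-value printed beside such a bound belongs to limma's test of the measured levels, and the bound itself was not tested. In wound homogenates, fewer cells of a type and less RNA per cell cannot be told apart.

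Nearly all on-off probes were dim. Where they were detected, their median signal was 44.6 in scanner units, against 908 for the probes detected on all 16 arrays, and for 26 of the 36 the median signal over those arrays was below 100. Only the Thumpd1 probe had a mean level above the 75th percentile. Each bound below sets the WT mean against the db/db mean over all days and treatments. The bound on the difference ran from 1.88-fold to 310-fold for the WT-only probes, with a median of 4.71-fold. For the db/db-only probes it ran from 1.44-fold to 23.8-fold, with a median of 2.63-fold. It reached 8-fold for 9 probes in all, 5 of them WT-only. Because the rule selected probes detected in a single strain, the levels of the 2 strains were nearly bound to separate. Only for Gbp2b did they overlap.

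**Figure D1:**
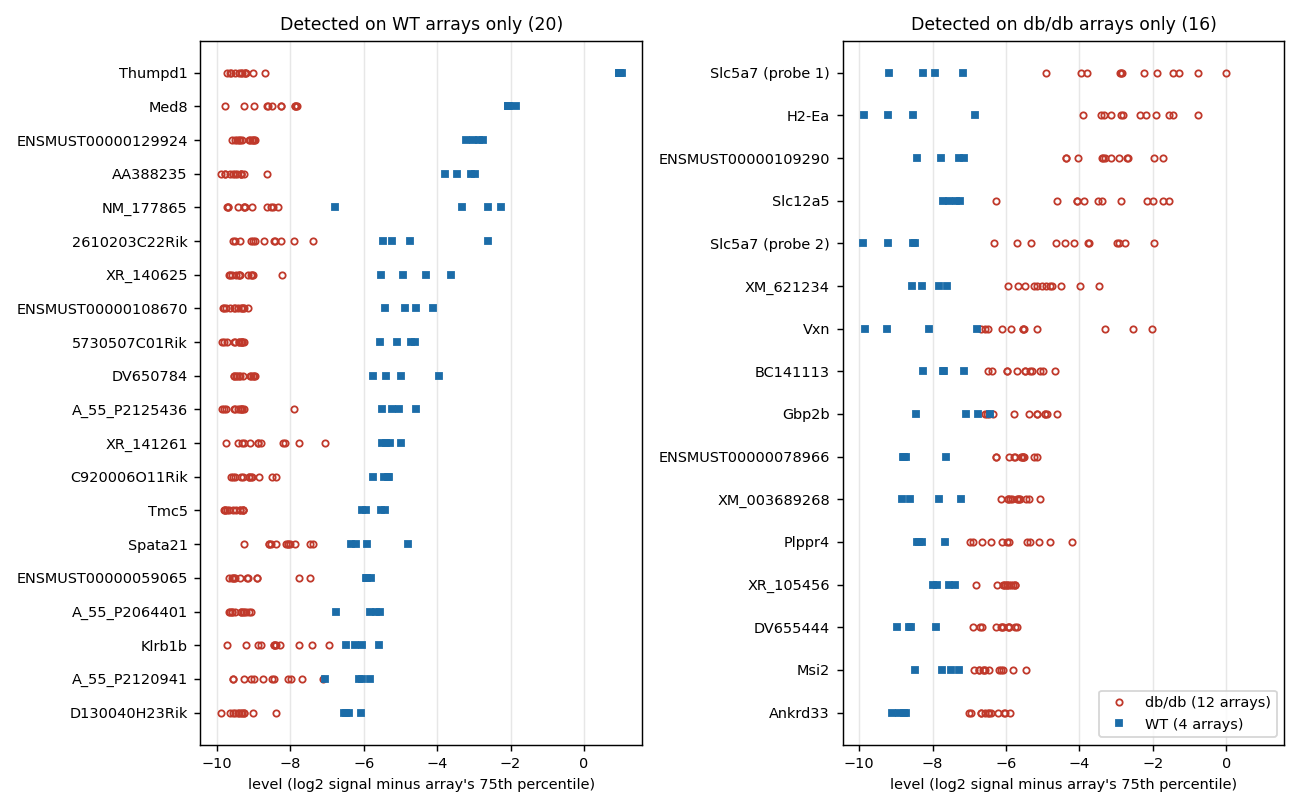
Level of each on-off probe on the 4 WT arrays (filled squares) and the 12 db/db arrays (open circles), as log2 signal minus the 75th percentile of the array, with the WT-only probes in the left panel and the db/db-only probes in the right, sorted by the bound on the difference. Thumpd1 stands alone near a level of 1 on the WT arrays, and most other probes lie between -7 and -2 where they were detected.

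Among the WT-only probes, Thumpd1, an RNA-binding protein that helps acetylate tRNA, was by far the most separated. Its probe read 0.99 and 0.96 on the WT day 7 arrays and 1.04 and 0.95 on the WT day 14 arrays. On the 12 db/db arrays it read from -9.73 to -8.70, with a median of -9.33. The median signal was 2564 in WT and 3.25 in db/db, and the probe was at least 310-fold higher in WT. Med8, a subunit of the Mediator complex that links transcription factors to RNA polymerase II, followed with -1.86 and -2.08 on WT day 7 and -2.06 and -2.04 on WT day 14. Its db/db levels ran from -9.79 to -7.81, a difference of at least 38.8-fold. Both probes were nearly constant over the 4 WT arrays, with an SD of 0.04 for Thumpd1 and 0.10 for Med8.

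The third named gene, AA388235, is a long noncoding RNA that lies between H2-K2 and H2-K1 in the MHC on chromosome 17. Its levels were -2.97 and -3.09 on WT day 7 and -3.46 and -3.78 on WT day 14, against -9.90 to -8.64 in db/db, at least 15.6-fold. A pair of unnamed probes stood on either side of it in the order of the bounds: ENSMUST00000129924 was at least 20.1-fold and NM_177865 at least 11.6-fold higher in WT. NM_177865 was also the most variable WT-only probe, at -2.61 and -2.27 on WT day 7 and -3.32 and -6.79 on WT day 14, so that 1 WT array held it close to the limit of detection. Against untreated db/db alone its bound was 31.2-fold on day 7 and 4.59-fold on day 14. The other 8 unnamed WT-only probes had bounds of 2.03-fold (A_55_P2120941) to 6.46-fold (XR_140625).

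The remaining WT-only genes were dimmer. The noncoding RNA 2610203C22Rik read -5.49 and -2.62 on WT day 7 and -5.24 and -4.75 on WT day 14, and its bound was 6.80-fold (10.2-fold on day 7 and 4.79-fold on day 14 against untreated db/db). The bound was 4.89-fold for 5730507C01Rik, 3.54-fold for the noncoding RNA C920006O11Rik and 2.94-fold for Tmc5, a transmembrane channel-like protein. Spata21, a spermatogenesis-associated gene, had a bound of 2.77-fold. Klrb1b, an inhibitory receptor of natural killer cells, read -5.58 and -6.04 on WT day 7 and -6.48 and -6.25 on WT day 14, against a db/db range of -9.72 to -6.95 and a bound of 2.29-fold. D130040H23Rik came last at 1.88-fold. The bounds of these 7 genes lay under 8-fold, and since each is a lower limit the differences themselves are not known.

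On the db/db side Slc5a7, the high-affinity choline transporter of cholinergic nerve endings, was the only gene in either direction with 2 on-off probes. The brighter probe ranged from -4.90 to 0.00 on the 12 db/db arrays, with a median of -2.55, and from -9.18 to -7.17 in WT, a difference of at least 23.8-fold. The dimmer probe ranged from -6.33 to -1.96 in db/db, with a median of -3.95, and from -9.90 to -8.47 in WT, at least 7.62-fold. The probes moved in parallel across the db/db arrays: both were highest on db/db + estrogen day 7 replicate 2 and lowest on db/db + estrogen day 14 replicate 2.

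H2-Ea encodes the alpha chain of the MHC class II molecule I-E, and the b haplotype of C57BL/6J is known to carry a promoter deletion that silences it. The RefSeq table lists the gene as a transcribed pseudogene. Its levels were -3.40 and -2.86 in db/db day 7 and -3.33 and -3.89 in db/db day 14. They were -2.35 and -0.77 in db/db + vehicle day 7, -2.19 and -1.44 in db/db + vehicle day 14, -1.57 and -1.91 in db/db + estrogen day 7, and -3.13 and -2.81 in db/db + estrogen day 14. WT levels were -8.54 and -6.85 on day 7 and -9.88 and -9.23 on day 14, and the bound was 22.8-fold, or 11-fold on day 7 and 13.5-fold on day 14 between the untreated groups. No db/db array came closer than 2.96 to the highest WT array, the widest gap of any db/db-only probe. H2-Ea was the 1 on-off probe among 44 probes of H2 genes, 40 of which were detected on at least 1 array. The summed level of the 3 B cell markers, cells that carry class II molecules, ran from -4.68 to -4.06 in WT and from -5.30 to -3.07 over the db/db groups, and its part in the result was not tested.

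Slc12a5, the chloride-extruding cotransporter of neurons, ranged from -6.27 to -1.56 in db/db (median -3.44) and from -7.72 to -7.27 in WT, at least 12.2-fold, or 19.8-fold on day 7 and 7.77-fold on day 14 among untreated mice. The unnamed ENSMUST00000109290 was at least 14.1-fold higher, and the other 6 unnamed probes had bounds of 1.75-fold (DV655444) to 4.13-fold (XM_621234). Vxn (vexin, a factor of neuronal differentiation) had a bound of 3.65-fold, and the interferon-induced GTPase Gbp2b one of 2.61-fold. These bounds include the treated arrays. Between untreated db/db and WT the bound was 1.14-fold on day 7 and 2.59-fold on day 14 for Vxn, and 1.03-fold and 1.88-fold for Gbp2b. For Gbp2b the highest WT array, at -6.44, lay 0.12 above the lowest db/db array, at -6.56, so the signals overlapped although the flags did not. Plppr4, a neuronal phospholipid phosphatase-related protein, followed with 2.25-fold, the RNA-binding protein Msi2 with 1.55-fold and the ankyrin repeat gene Ankrd33 with 1.44-fold. The last 3 genes spanned levels of -7.01 to -4.21 in db/db and -9.09 to -7.27 in WT.

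Promoter windows of 4 genes are shown because they belong to the largest named on-off differences or, for Gbp2b, to a gene whose neighbours are described with their values. Each holds 250 bases before and 50 after a RefSeq start in build GRCm38.p6, the reference of the C57BL/6J strain, to which the WT mice belong. Of the 18 symbols, 12 had a window in the table. Capitals mark matches on either strand to the motif letters searched: TATAAA (a core promoter element, found in 13.6% of all 32851 windows), CCAAT (37.4%), GAAANNGAAA (an interferon-stimulated response element, 3.44%), TTCNNNGAA (a gamma-activated site, 8.30%) and CACGTG (an E-box, 7.15%). The Thumpd1 window is chr7:119723570-119723869 on the minus strand, the AA388235 window chr17:33981242-33981541 on the plus strand, the Slc5a7 window chr17:54298985-54299284 on the minus strand and the Gbp2b window chr3:142594597-142594896 on the plus strand.
Thumpd1: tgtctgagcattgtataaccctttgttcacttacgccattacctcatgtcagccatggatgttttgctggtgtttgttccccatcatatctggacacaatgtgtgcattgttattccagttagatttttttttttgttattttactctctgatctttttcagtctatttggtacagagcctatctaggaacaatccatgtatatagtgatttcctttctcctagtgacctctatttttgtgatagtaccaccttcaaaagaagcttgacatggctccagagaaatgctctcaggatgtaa
AA388235: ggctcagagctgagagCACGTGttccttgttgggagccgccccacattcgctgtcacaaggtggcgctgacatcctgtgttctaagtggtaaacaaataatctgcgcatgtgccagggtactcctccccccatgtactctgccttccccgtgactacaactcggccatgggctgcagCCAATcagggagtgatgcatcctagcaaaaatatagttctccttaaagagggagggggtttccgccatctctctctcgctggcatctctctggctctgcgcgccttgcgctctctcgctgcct
Slc5a7: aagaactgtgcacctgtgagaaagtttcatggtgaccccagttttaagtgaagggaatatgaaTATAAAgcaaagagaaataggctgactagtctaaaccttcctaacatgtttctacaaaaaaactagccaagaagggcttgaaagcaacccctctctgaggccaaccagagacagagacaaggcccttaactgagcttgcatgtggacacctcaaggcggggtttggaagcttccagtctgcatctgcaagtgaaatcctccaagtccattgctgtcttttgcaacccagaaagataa
Gbp2b: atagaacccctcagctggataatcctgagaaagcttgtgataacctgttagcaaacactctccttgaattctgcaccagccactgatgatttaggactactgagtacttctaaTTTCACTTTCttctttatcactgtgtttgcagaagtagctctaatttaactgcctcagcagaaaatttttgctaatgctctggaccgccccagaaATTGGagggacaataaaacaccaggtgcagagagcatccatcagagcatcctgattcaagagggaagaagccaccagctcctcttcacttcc
Gbp2b holds GAAANNGAAA on the minus strand and CCAAT, AA388235 holds CACGTG and CCAAT, Slc5a7 holds TATAAA, and Thumpd1 holds none of the 5. The matches are descriptions of the reference letters, and the C57BLKS/J sequence was not used here.

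The other probes of the same genes gave a different picture for most of them. A probe that met the rule would itself be an on-off probe, so the other probes are by construction those that did not. There were 13, for 10 named genes and 2 accessions, and 7 of them were detected on all 16 arrays. On labelled day 7, 2 of the 10 that could be tested were called between db/db and WT at an unadjusted p under 0.05 and a fold change over 2, where 14.1% of all 29748 probes tested were called. On labelled day 14, 2 of 10 were called, against 17.9% of 30281. All 4 calls were the Klrb1b probes. The median log2 fold change was -0.17 and -0.03 on days 7 and 14, beside -0.05 and -0.12 over all probes tested.

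Thumpd1 was the sharpest case. Its other probe, of the same RefSeq accession, read 1.28 to 1.45 on the WT arrays and 0.99 to 1.64 on the db/db arrays, and the ranges overlapped fully. The log2 fold change of untreated db/db against WT was -0.21 (SE 0.13, limma adjusted p = 0.313) on day 7 and 0.07 (SE 0.13, adjusted p = 0.726) on day 14. Med8 behaved alike, with 2.77 to 2.98 in WT and 2.64 to 3.28 in db/db, and changes of 0.09 (SE 0.13, adjusted p = 0.697) and 0.06 (SE 0.13, adjusted p = 0.801). For both genes the on-off pattern held for 1 probe of an accession that another probe detected on all 16 arrays.

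Several db/db-only genes also had another probe that was detected in both strains. The other probe of Slc12a5 read -3.79 to -3.56 in WT and -4.22 to -2.63 in db/db, with changes of 0.95 (SE 0.18, limma adjusted p = 0.00924) on day 7, which fell short of a 2-fold change and passed it without WT day 7 replicate 2 (1.04) or db/db day 7 replicate 2 (1.02), and 0.29 (SE 0.18, adjusted p = 0.280) on day 14. The other probe of Ankrd33 read -5.05 to -4.74 in WT and -5.10 to -4.55 in db/db. That of Msi2, which belongs to another accession of the gene, was bright in both strains at 1.34 to 1.58 and 1.05 to 1.92. The other probe of Plppr4 was detected on 3 WT and 12 db/db arrays, at means of -6.17 and -5.75. Spata21, on the WT side, had another probe on all 16 arrays at means of -5.19 in WT and -5.54 in db/db, and its day 7 change was -0.31 (SE 0.51, adjusted p = 0.734), or -1.31 and called without WT day 7 replicate 1. On the slides of day 7, each with both strains, the Spata21 change was 0.74 and -1.36, in opposite directions. The other probe of NM_177865 was also on all 16 arrays, at -5.71 to -1.92 in WT and -7.12 to -1.99 in db/db, with changes of -1.87 (SE 1.22, adjusted p = 0.338) on day 7 and -0.74 (SE 1.22, adjusted p = 0.7) on day 14. The changes of Plppr4 were 0.61 (SE 0.32, adjusted p = 0.24) and 0.27 (SE 0.32, adjusted p = 0.595). With all arrays, no other probe of Slc12a5, Ankrd33, Msi2, Plppr4, Spata21 or NM_177865 was called on either day. Those of Slc12a5, Plppr4, Spata21 and NM_177865 had mean changes in the direction of the on-off probe on both days. For Spata21 the day 7 direction differed between slides.

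Klrb1b was the gene whose other probes were called. One of them was detected on all 4 WT arrays and on 1 db/db array, with a WT range of -6.12 to -4.87 and a db/db range of -9.76 to -6.71. In untreated db/db it was lower by at least 5.11-fold on day 7 (limma adjusted p = 0.00132) and by at least 2.65-fold on day 14 (adjusted p = 0.000964), where normexp background correction gave a log2 change of -0.87 and no call. A second was detected on 4 WT and 7 db/db arrays. It changed by -3.84 on the log2 scale (SE 0.62, adjusted p = 0.00508) on day 7 and was lower by at least 12.8-fold on day 14 (adjusted p = 0.000974). For both probes the p-values belong to the measured log2 changes, and the bounds were not tested. The summed level of the 3 T cell markers with a probe ran from 0.59 to 1.52 in WT and from -0.03 to 1.06 over the db/db groups, and its part in the result was not tested. Klrb1b was also the 1 on-off probe among 40 probes of natural killer cell lectin receptors. The other probe of Gbp2b was detected on no WT and 8 db/db arrays, at means of -9.03 and -6.61, and was below the filter for a test on both days. It read -8.41 to -7.51 on the untreated db/db arrays and -6.92 to -5.24 on the treated ones. The other probe of Tmc5 was detected on 1 db/db array.

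**Figure D2:**
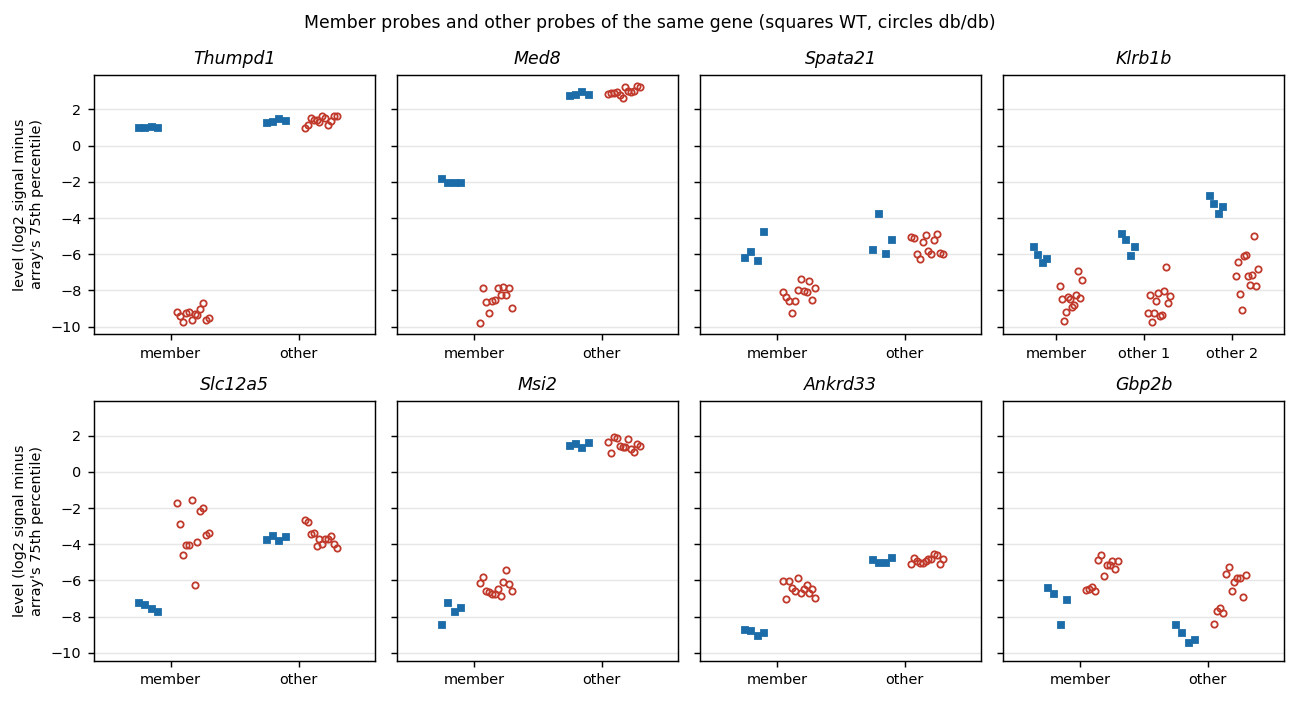
Levels of the on-off probe (member) and of other probes of the same gene on the 4 WT arrays (filled squares) and the 12 db/db arrays (open circles) for 8 genes, as log2 signal minus the 75th percentile of the array. The strains separate on the member probe of Thumpd1, Med8, Slc12a5, Msi2 and Ankrd33 and overlap or lie side by side on the other, while all 3 Klrb1b probes are higher in WT.

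The 18 genes lay on 12 chromosomes. A few stood close together in the gene order of the RefSeq table. The WT-only 2610203C22Rik and the db/db-only Vxn lie on chromosome 1 with overlapping spans and opposite directions, and Gm6161 is listed between them. Thumpd1 and Tmc5, both WT-only, are 15 genes apart on chromosome 7. AA388235 and H2-Ea, of opposite directions, are 22 genes apart in the MHC on chromosome 17. Whether overlapping transcripts share signal was not tested.

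The 2 nearest genes on each side of each on-off gene made 68 neighbours. They were chosen by place among genes with a named probe, passing over on-off genes and the symbol families set aside. Each was read by its probe of highest mean level over the 16 arrays, whereas the background counts all probes tested. Of them 51 were detected on all 16 arrays and 5 on none. On labelled day 7, 19 of 61 tested were called between db/db and WT (5 higher, 14 lower), or 31.1%, beside the background of 14.1%. On labelled day 14, where WT and untreated db/db shared no slide, 14 of 62 were called, all lower, or 22.6% beside 17.9%. After Benjamini-Hochberg adjustment of limma's p the counts were 21 (13.2% of all probes tested) and 20 (19.5%). By place, from the nearest gene on each side to the fifth, the calls on day 7 were 12 of 30, 7 of 31, 7 of 30, 8 of 31 and 4 of 28. On day 14 they were 6 of 31, 8 of 31, 9 of 29, 6 of 31 and 5 of 28. The median log2 fold change of the neighbours was -0.24 and -0.35, so they lay on the low side in db/db, as did the calls over all probes (8.4% lower against 5.68% higher on day 7, and 15.6% against 2.35% on day 14).

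Of the 60 neighbours tested on both days, 11 were called on both in the same direction, where 6.46% of 29134 probes were. All 11 were lower in db/db, and 8 also had adjusted p under 0.05 on both days, where 3.56% of all probes did (2.49% lower). 4 of them sit beside WT-only genes and share their direction. 1700030C10Rik, next to 5730507C01Rik on chromosome 12, read -4.22 to -3.32 in WT and was detected on 2 of 12 db/db arrays. In untreated db/db it was lower by at least 16.2-fold on day 7 (limma adjusted p = 0.00053) and by at least 9.28-fold on day 14 (adjusted p = 0.000346). Tmc7, a sister gene of Tmc5 next to it on chromosome 7, read -1.91 to -1.33 in WT and -6.18 to -4.43 in db/db. It changed by -3.89 (SE 0.27, adjusted p = 8.39e-05) and -4.73 (SE 0.27, adjusted p = 2.26e-05), and on the slides of day 7, each with both strains, by -3.72 and -4.06.

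The natural killer receptor cluster on chromosome 6 held the other pair. Klrb1, a receptor of the same family as Klrb1b, read -5.69 to -3.83 in WT and -8.17 to -5.64 in db/db, with a change of -2.92 on day 7 (SE 0.46, limma adjusted p = 0.00466), and was lower by at least 3.47-fold on day 14 (adjusted p = 0.00725), where normexp gave -0.78 and no call. Clec2i, a C-type lectin of the cluster, read -2.83 to -2.35 in WT and -5.03 to -3.39 in db/db. Its changes were -2.23 (SE 0.22, adjusted p = 0.000431) and -1.12 (SE 0.22, adjusted p = 0.00796), and the second fell to -0.74 and lost its call with quantile normalization. Klrb1c, between Klrb1 and Klrb1b and named after its values were seen, was called on day 7 alone, at -1.61 (SE 0.59, adjusted p = 0.0977), and another Klrb1c probe missed the rule by 1 WT array. These receptors are similar in sequence, and shared signal between their probes was not tested.

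The other 4 sit beside db/db-only genes and were lower in untreated db/db. Gbp2, the gene next to Gbp2b on chromosome 3 and an interferon-induced GTPase like it, read 1.25 to 2.58 in WT and -1.85 to -0.43 in db/db. It changed by -4.10 on day 7 (SE 0.37, limma adjusted p = 0.000285) and by -3.29 on day 14 (SE 0.37, adjusted p = 0.000643). Gbp7, 2 genes before Gbp2b, changed by -1.85 and -1.61 (SE 0.29, adjusted p = 0.00435 and 0.00591), and Gbp3, which lies between them and was named after its values were seen, by -1.40 on day 7 (adjusted p = 0.0219) and -0.59 on day 14 (adjusted p = 0.229). In the same comparison on day 7 the Gbp2b on-off probe itself had means of -6.60 in WT and -6.49 in untreated db/db, and all 8 treated db/db arrays lay above the untreated ones. It was the 1 on-off probe among 23 of the Gbp and Irg GTPases. These genes are close copies of each other, and shared signal between their probes was not tested.

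In the MHC, H2-Eb1, which encodes the beta chain that pairs with the product of H2-Ea, read 4.13 to 5.13 in WT and 2.72 to 4.93 in db/db. It changed by -1.94 (SE 0.42, limma adjusted p = 0.0164) on day 7 and -1.43 (SE 0.42, adjusted p = 0.0394) on day 14, where the value was -1.10 and not called with slide as a fixed block. H2-Eb2 changed by -2.74 (SE 0.52, adjusted p = 0.0106) and -3.88 (SE 0.52, adjusted p = 0.0016). Btnl2, on the other side of H2-Ea and named after its values were seen, changed by -0.97 on day 7, which was not called, and -2.02 on day 14 (adjusted p = 0.00459). Btnl1, the outer neighbour on that side and also named after its values were seen, changed by 0.49 on day 7 (adjusted p = 0.343) and was below the filter for a test on day 14. These changes are for untreated db/db: on the treated db/db arrays H2-Eb1 reached 4.93, inside the WT range. Class II genes that are not among these neighbours also had lower means over all db/db arrays, and were named after their values were seen. The means in WT and db/db were 0.99 and -2.30 for H2-Aa and 2.22 and 0.62 for H2-DMb1. For H2-DMa they were closer, at -0.76 and -0.91. The summed level of the 3 macrophage markers with a probe ran from 4.84 to 5.62 in WT and from 5.66 to 6.63 over the db/db groups, and its part in the result was not tested.

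Mmp9, beside Slc12a5, was chosen after its values were seen because it was the largest rise among the neighbours, at 4.40 on day 7 (limma adjusted p = 0.0233) and 1.41 on day 14 (adjusted p = 0.366). Mmp9 is a gelatinase of neutrophils and macrophages. The summed level of the 5 neutrophil markers with a probe ran from 8.21 to 8.25 in WT day 7 and from 8.52 to 8.73 in db/db day 7. Linear signals are summed, so the brightest markers dominate and the sum can hide changes of dimmer ones. Ngp was above background on no WT day 7 array, while all 5 markers were detected on both db/db day 7 arrays. The part of neutrophils in the Mmp9 values was not tested. The Slc12a5 on-off probe read -1.71 and -2.86 in db/db day 7 and -4.61 and -4.06 in db/db day 14, the higher levels of the untreated group being those labelled day 7.

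**Figure D3:**
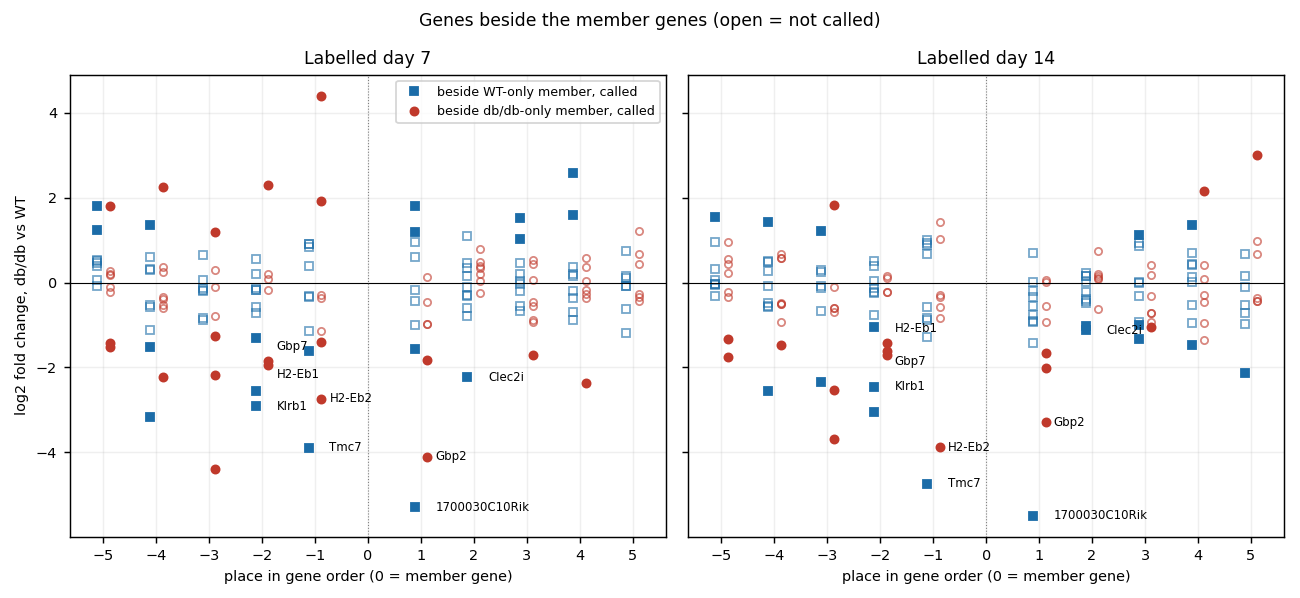
Log2 fold change of db/db against WT for the 5 nearest genes on each side of every on-off gene, by place in the gene order, for labelled days 7 and 14; squares are neighbours of WT-only genes, circles of db/db-only genes, filled symbols are called, and a gene beside more than 1 on-off gene is drawn for each. The 8 labelled neighbours, called on both days with adjusted p under 0.05, all lie below 0.

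Within the db/db strain the rule required detection on every array. Treatment could therefore be compared only among probes that stayed above background in every group. On the array where it was closest, a db/db-only probe lay a median of 0.62 above the lowest detected level. This limits how far a dim probe could be lower in any group, and the counts of higher and lower calls carry that limit. On labelled day 7, 3 of the 16 db/db-only probes were called higher in db/db + estrogen than in db/db and none lower, where 9.91% of 30191 probes were called (5.2% higher). They were H2-Ea, Vxn and Gbp2b. With vehicle, 2 of 16 were called (background 4.82%, 2.51% higher), again H2-Ea and Gbp2b and again higher. Estrogen against vehicle gave 2 of 16 (background 8.98%, 4.67% higher), Vxn and Plppr4, both higher with estrogen. The untreated db/db arrays serve both of the first comparisons. On labelled day 14 the counts were 1 for estrogen (Vxn, background 3.91%, 2.56% higher), 2 for vehicle (H2-Ea and Gbp2b, background 7.51%, 5.31% higher) and 1 for estrogen against vehicle (Vxn, background 0.984%, 0.507% higher), all higher. Several of these counts change when 1 array is left out, as given with the alternatives at the end.

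Vxn showed the largest response. It read -6.69 and -6.11 in db/db day 7, -5.54 and -5.88 in db/db + vehicle day 7, and -2.56 and -2.03 in db/db + estrogen day 7, where neither group overlapped the estrogen group. The change was 4.11 against db/db (SE 0.65, limma adjusted p = 0.00687) and 3.41 against vehicle (SE 0.65, adjusted p = 0.0274). On labelled day 14 it read -5.51 and -6.49 in db/db, -6.57 and -5.53 with vehicle, and -5.15 and -3.30 with estrogen. Its change of 1.77 against db/db there did not pass adjustment (adjusted p = 0.452), and the change was different from that on day 7 by -2.34 (SE 0.93, unadjusted p = 0.0302, adjusted p = 0.433 in limma's interaction test). On day 7 the summed level of the 4 hair follicle markers moved with Vxn: it ran from -4.58 to -4.27 in db/db day 7, from -2.69 to 1.05 with vehicle and from 2.95 to 3.44 with estrogen. On day 14, where Vxn was called higher with estrogen than with vehicle, the sum was lower with estrogen (-3.93 to -3.33) than with vehicle (-3.08 to -2.45). In WT day 7, where Vxn was below background, it ran from -0.29 to 4.61. The 5 neutrophil markers with a probe summed to 8.52 to 8.73 in db/db day 7 and 2.62 to 4.64 with estrogen. The part of either cell type in the Vxn values was not tested.

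Gbp2b read -6.52 and -6.46 in db/db day 7, -5.17 and -4.93 with vehicle and -4.88 and -4.60 with estrogen, so both treated groups lay above the untreated one. The estrogen change was 1.75 (SE 0.38, limma adjusted p = 0.0293) and the vehicle change 1.44 (SE 0.38, adjusted p = 0.164). With normexp background correction the estrogen change was 0.82 and no longer called. For H2-Ea the changes were 1.39 with estrogen (SE 0.61, adjusted p = 0.241) and 1.57 with vehicle (SE 0.61, adjusted p = 0.312), and neither passed adjustment. On labelled day 14 vehicle changed H2-Ea by 1.79 (adjusted p = 0.191) and Gbp2b by 1.30 (adjusted p = 0.149). Plppr4 read -4.79 and -4.21 with estrogen and -5.97 and -5.91 with vehicle on day 7, a change of 1.44 (SE 0.57, adjusted p = 0.193). For Slc5a7 no treatment comparison was called for either probe.

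Within a strain, the share of on-off probes called between the labelled days was 10% in WT and 18.75% in untreated db/db. Between the labelled days 2 of 20 WT-only probes were called in WT (background 4.33%, 2.39% lower), NM_177865 at -2.62 (SE 0.88, limma adjusted p = 0.287) and DV650784 at -1.10 (SE 0.33, adjusted p = 0.265), both lower on day 14. In untreated db/db, 3 of 16 db/db-only probes were called (background 12.6%, 11.2% lower), all lower on day 14. These were ENSMUST00000109290 at -1.99 (SE 0.57, limma adjusted p = 0.0487; -1.50 and not called without db/db day 7 replicate 2), Slc12a5 at -2.05 (SE 0.84, adjusted p = 0.14) and XM_621234 at -1.35 (SE 0.59, adjusted p = 0.165). The labelled days were scanned separately on different slides, so day and scan cannot be told apart. None of the 16 probes showed a treatment effect that differed between the labelled days after adjustment in limma's interaction test, and 1, 0 and 1 had an unadjusted p under 0.05 for estrogen, vehicle and estrogen against vehicle.

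**Figure D4:**
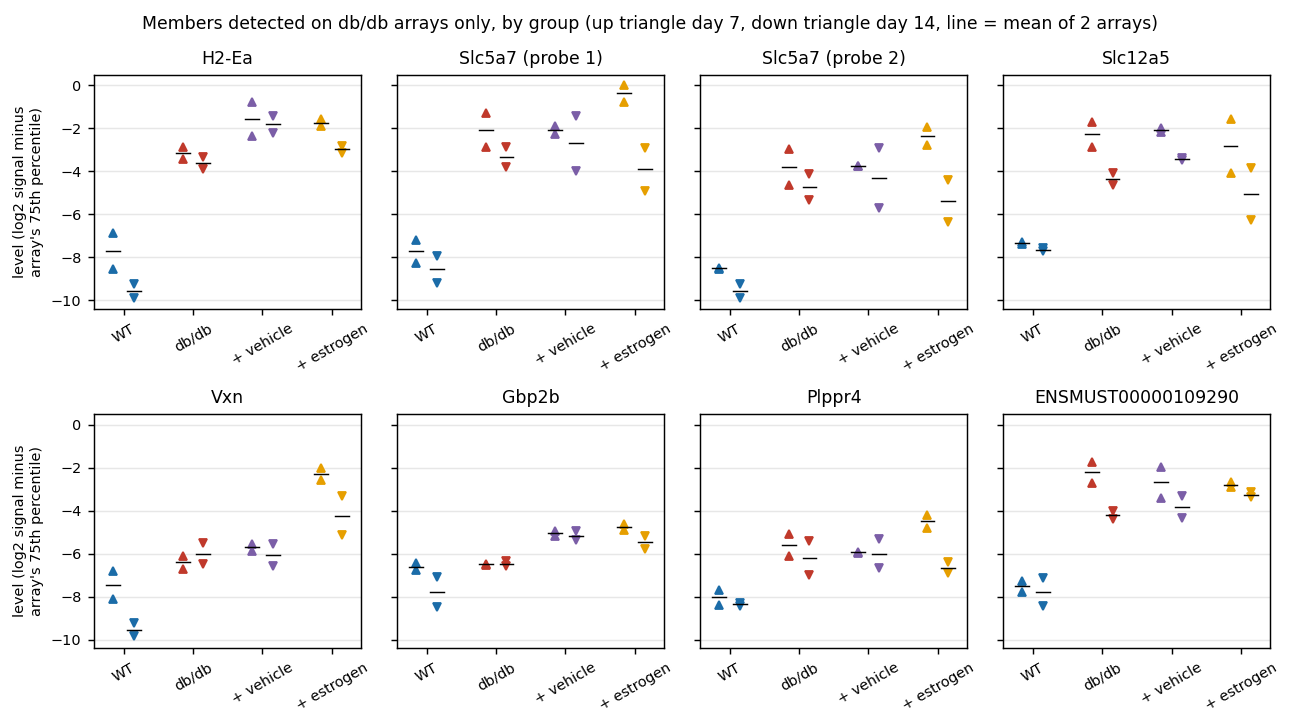
Levels of 8 db/db-only probes by group on labelled days 7 (upward triangles) and 14 (downward triangles), as log2 signal minus the 75th percentile of the array, with each of the 2 arrays as a point and their mean as a line. Vxn is highest in db/db + estrogen on day 7, and Gbp2b lies above the untreated db/db group in both treated groups.

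The probes just outside the rule showed how much it rests on single arrays. 23 probes lacked 1 WT array for the WT-only call, in 13 cases WT day 7 replicate 2, and 12 were present on 1 db/db array. The most separated of these was 5830417I10Rik, at 0.56 to 0.84 in WT and -9.35 to -6.91 in db/db, where only db/db day 7 replicate 2 was flagged. On the other side 4 probes lacked 1 db/db array, among which the H2 gene H2-Q1 had the largest difference (-8.42 in WT and -5.85 in db/db), and 25 were present on 1 WT array, in 21 cases WT day 14 replicate 1. Of all arrays, that one had the most probes well above background, 79.0%. Without WT day 7 replicate 2 the WT-only count would be 33, and without WT day 14 replicate 1 the db/db-only count would be 37. Just inside the rule, Plppr4 exceeded the lowest detected level of its array by 0.03 on the array where it was closest.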

How the data were processed

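Wound RNA in 16 samples was hybridised to 1-colour Agilent 44K arrays. Per the labels, the authors scanned the arrays with Agilent Feature Extraction 11.0.1.1, and the deposited intensity values are background-subtracted and not scaled between arrays. The deposited detection flags (0 or 1) of the same software were used as given. The authors' value table holds the ratio of the linear signal to the 75th percentile of its array for 34643 probes, all 36 on-off probes included. It was used to check the scale and as an alternative input to the fits.

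Spots flagged as outliers were left out, and spots of 1 probe were averaged. The level was log2 intensity minus log2 of the array's 75th percentile. Probes were named through accession in the RefSeq table (27427 of 39429, 69.6%), and 1 more accession, that of H2-Ea, was added by hand. Neighbours were taken from gene order in that table (GRCm38.p6) among genes with a probe. All 8 groups of 2 arrays entered 1 limma 3.58.1 fit (R 4.3.3). Tested probes had the well-above-background flag on each array of 1 or both groups compared, and were called at an unadjusted p under 0.05 and a fold change over 2. Benjamini-Hochberg adjusted values over all probes tested are given beside it. On simulated data for estrogen against untreated db/db on day 7, 193 of 200 probes changed 4-fold among 30191 were called, with 389 unchanged probes. The number of arrays limits the precision.

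The members and gene lists were chosen with earlier results of these data known. Named were members with a RefSeq symbol, members called in their own strain, up to 3 near misses a kind, and neighbours called on both days with adjusted p under 0.05. Alternatives were other flags, background correction, normalization, the authors' value table, filters, slide and replicate blocks, and leaving out each array.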

Additional observations from a re-analysis of the deposited data

How the results depend on the processing

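The number of on-off probes depended on the flag and on single arrays. With the looser flag for a positive and significant signal there were 6 WT-only and 4 db/db-only probes, of which 2 (Tmc5 and DV650784) and 1 (the dimmer Slc5a7 probe) were also found by the rule. Thumpd1 was positive and significant on 3 of 12 db/db arrays. From the untreated arrays alone there were 145 and 39, from labelled day 7 alone 48 and 379, and from labelled day 14 alone 547 WT-only probes; the single-day counts were chosen after seeing the data. Leaving out 1 array at a time gave 20 to 33 WT-only probes (33 without WT day 7 replicate 2) and 16 to 37 db/db-only probes (37 without WT day 14 replicate 1).

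Other probes of the same genes gave 2 to 3 calls on day 7 and 2 on day 14 without 1 array, 4 on day 7 with quantile normalization, 1 on day 14 with normexp, 4 on day 14 with no filter on dim probes, 1 and 0 where every array of both groups had to be above background, and 0 and 0 for genes whose on-off probe was bounded at 8-fold or more. For neighbours the ranges without 1 array were 18 to 20 and 11 to 18. The nearest gene on each side gave 12 and 6 calls, the nearest 5 gave 38 and 34, and requiring every array above background gave 8 on day 14.

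For the db/db-only probes, counts without 1 array ran from 2 to 3 for estrogen and 1 to 2 for vehicle against db/db on day 7 (1 without db/db day 7 replicate 1), and from 1 to 3 for estrogen against vehicle (1 without db/db + vehicle day 7 replicate 2). On day 14 they ran from 0 to 2 for estrogen (0 without db/db day 14 replicate 2, 2 without db/db + estrogen day 14 replicate 1), from 0 to 3 for vehicle (0 without db/db + vehicle day 14 replicate 2, 1 without db/db day 14 replicate 2) and from 1 to 2 between the treatments (2 without db/db + vehicle day 14 replicate 1). Between the days they were 2 in WT throughout, and 1 to 5 in db/db (5 without db/db day 7 replicate 1, 1 without db/db day 7 replicate 2 or db/db day 14 replicate 2). Normexp gave 1 call for vehicle on day 7, 0 for estrogen and 1 for vehicle on day 14, and 1 between days in WT, where quantile normalization also gave 1. Fits of only the 4 arrays compared gave 1 for vehicle and 4 for estrogen against vehicle on day 7, 0 for estrogen on day 14 and 0 between days in WT. With adjusted p under 0.05 alone there were 0 for vehicle and 1 for estrogen against vehicle on day 7, 0, 0 and 0 for the comparisons on day 14, 0 between days in WT and 1 in db/db. Slide as a fixed block gave 0 for estrogen and 2 for estrogen against vehicle on day 14, slide as a random block 2 for estrogen, and raising dim signals to the floor 2 for estrogen against vehicle. The cause was not tested.

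With the replicate number as a replicate block the counts stayed at 2 and 2 for other probes, 19 and 14 for neighbours, and 3, 2 and 2 on day 7 and 1, 2 and 1 on day 14 for estrogen, vehicle and estrogen against vehicle. The deviations of same-numbered arrays correlated between -0.45 and 0.39. On labelled day 7, arrays with the same replicate number shared a slide. With 2 arrays per group, these correlations cannot decide whether the numbers pair the arrays in any other way. Comparisons between days could not be fitted with the slide or the replicate number as a fixed block. They were fitted with slide as a random block. No single gene called in the main limma fit reversed its direction, and direction was not followed for genes without a call. Of the values of single genes, 539 kept their status as called or not called, 6 gained a call and 13 lost it. Dim signals also limit the on-off probes, since a bound gives only the least difference.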
